A study of Chlamydomonas reinhardtii with 28 samples.

Results

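H3K9me1 and H3K9me3 peaks were compared in a DNMT1 knockout (dnmt1) of the unicellular green alga Chlamydomonas reinhardtii, sampled at the vegetative stage. DNMT1 encodes a DNA methyltransferase. The members were the peaks of 4 lists, the H3K9me1 and H3K9me3 lists of dnmt1 mt+ (strain CC-5155, mating type plus) and of dnmt1 mt- (strain CC-5325, mating type minus). They were taken as deposited, and the marks were compared within a strain. There were 1248 H3K9me1 and 12211 H3K9me3 peaks in mt+, and 2716 and 12467 in mt-, together 28642 of the 152930 peaks of the series. An H3K9me1 peak was said to carry H3K9me3 when at least 1 bp of it lay in an H3K9me3 peak of the same strain.

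The series mapped histone marks by chromatin immunoprecipitation and sequencing in wild-type (WT), dnmt1 and set3 cells of these 2 strains. WT and dnmt1 were profiled for H3K4me1, H3K9me1, H3K4me3 and H3K9me3, and set3, a knockout of SET3, for H3K9me1. All cultures were grown mixotrophically in TAP medium, with continuous light, and neither the number of clones of a knockout nor the way it was made is given in the sources used here. The H3K9me1 antibody came from Abcam and the H3K9me3 antibody from CST. Peak lists cannot show whether the knockouts lack their gene. Each mark, genotype and strain had 1 library, and nothing says whether libraries came from separate cultures, so no test between conditions was run and the strains are given side by side.

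In Chlamydomonas, monomethylation of lysine 9 of histone H3 is the H3K9 state tied to silencing of transgenes and mobile elements, and SET3 is the enzyme known to place it. DNMT1 is a maintenance enzyme that copies cytosine methylation to newly made DNA. Trimethylation of the same lysine marks constitutive heterochromatin in animals and fungi, whereas H3K4me3 marks the starts of active genes. The outer parts of the chromosomes of this alga hold satellite arrays and other repeats beside the telomeres. The peak lists hold no sequence, so repeats were not examined here.

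No read counts are given in the peak lists. The local background at a peak's summit, in scaled fragments, was estimated from the deposited fold and p-value and stands in for depth below. Its median was 26.0 in the H3K9me1 list of dnmt1 mt+ and 40.0 in that of dnmt1 mt-, and 31.6 and 30.9 in the H3K9me3 lists. The mt- H3K9me1 call was thus made on the higher background and gave more, mostly narrow, peaks. In the WT lists the median was 35.3 in mt+ and 37.8 in mt- for H3K9me1, and 24.9 and 31.1 for H3K9me3. The WT mt+ H3K9me3 list thus had a lower background than that of dnmt1 mt+. The part of this in differences between dnmt1 and WT was not tested. Per the labels, the H3K9me3 libraries shared their input with H3K4me1, while each H3K9me1 library had its own. Peaks were placed by their midpoint at chromosome ends (the outermost 50 kb of the 17 chromosomes), in interiors, on the 40 contigs or on the sequence called mating_type_plus.

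Most H3K9me1 peaks of dnmt1 carried no H3K9me3, and those that did were a far larger share of the peaks at chromosome ends than in interiors. In mt+, 117 of 1248 peaks carried it (9.38%, Wilson 95% interval 7.88 to 11.1), and in mt- 131 of 2716 (4.82%, 4.08 to 5.69). At chromosome ends, H3K9me3 lay on 75 of 237 peaks in mt+ (31.6%, interval 26.1 to 37.8) and on 45 of 173 in mt- (26.0%, interval 20.05 to 33.0). In interiors it lay on 31 of 884 (3.51%, interval 2.48 to 4.93) and 60 of 2431 (2.47%, interval 1.92 to 3.16). The intervals of ends and interiors did not overlap in either strain. They cover counting error only, and neighbouring peaks are not independent.

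On contigs the intervals of the strains overlapped slightly. There 11 of 111 peaks carried H3K9me3 in mt+ (9.91%, interval 5.62 to 16.9) and 26 of 111 in mt- (23.4%, interval 16.5 to 32.1). These contig shares were unstable, at 1% and 8.11% with a −log10 q of at least 5 in both lists, and at 44.7% in mt- with peaks joined over 1 kb. By length the contrast of ends and interiors was wider. H3K9me3 peaks covered 26.3% of the H3K9me1 base pairs at ends in mt+ and 36.05% in mt-, against 1.97% and 2.75% in interiors. In all, 98.7 kb of the 113 kb that lay under both marks in mt+ was at ends, and 137 kb of 191 kb in mt-.

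In the WT lists the shares at ends were lower. Over the whole WT lists, 274 of 3831 H3K9me1 peaks in mt+ (7.15%) and 301 of 4113 in mt- (7.32%) carried H3K9me3. At WT ends it was 27 of 219 (12.3%, 8.61 to 17.3) and 10 of 179 (5.59%, 3.06 to 9.98), and in WT interiors 234 of 3384 (6.91%, 6.11 to 7.82) and 275 of 3697 (7.44%, 6.64 to 8.33). In WT interiors, 229 of those 234 peaks and 272 of those 275 carried only H3K9me3 that overlapped H3K4me3. Of the 27 WT mt+ peaks, 15 lay at the right end of chromosome 5, where the median local background was 295. Without that end, an alternative added after seeing the data, 12 of 193 WT mt+ peaks carried H3K9me3 (6.22%, 3.59 to 10.6), and 75 of 218 in dnmt1 mt+ (34.4%, 28.4 to 40.9). WT ends had 13.6 kb under both marks in mt+, and 8.07 kb in mt-. With 1 library per genotype, the gap between dnmt1 and WT has no replicate error.

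Peaks with H3K9me3 were wider than those without it at chromosome ends and in interiors. At ends, widths with H3K9me3 ran from 326 bp to 17.1 kb in mt+, with a median of 1883 bp (95% interval 1100 to 2446), against a median of 541.5 bp (456 to 601) without it. In mt- they ran from 274 bp to 21.0 kb with a median of 4065 bp (1097 to 6497), against 348 bp (307 to 379). In interiors the medians with and without were 1347 bp (877 to 1576) and 348 bp (338 to 363) in mt+, and 1139 bp (839 to 1480) and 335 bp (328 to 342) in mt-. Contigs did not show this gap clearly, with 527 bp (424 to 2640) against 762 bp (645 to 852) in mt+ and 622 bp (458 to 1870) against 502 bp (425 to 626) in mt-.

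**Figure D1:**
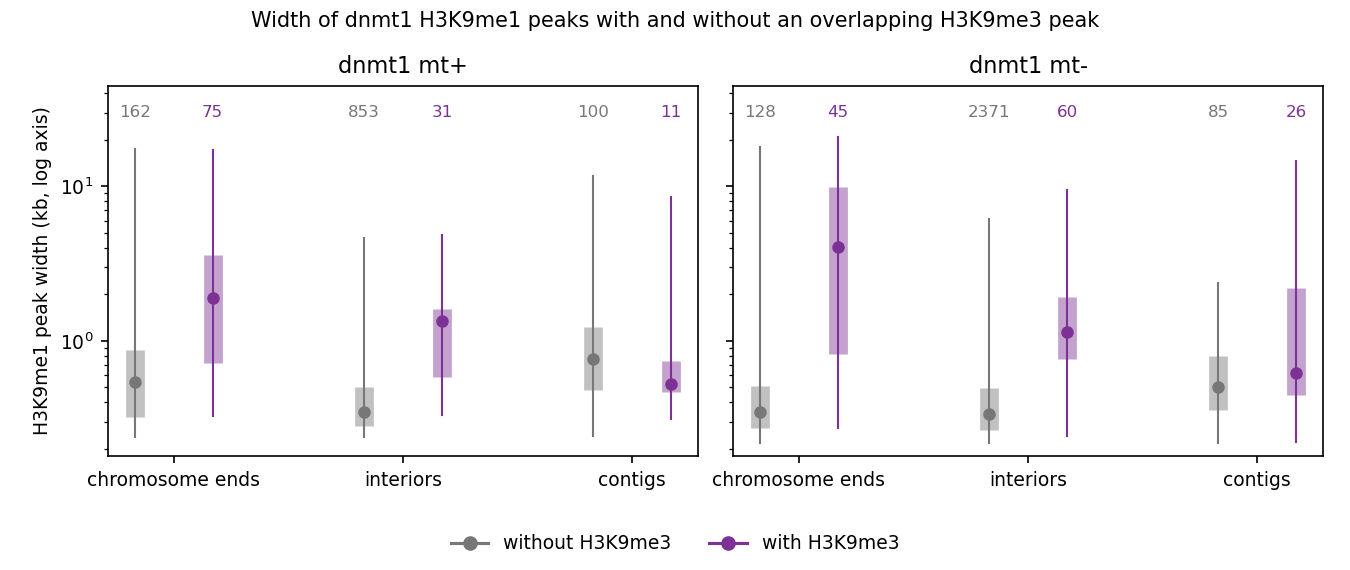
Width in kb (log axis) of dnmt1 H3K9me1 peaks without (grey) and with (purple) an overlapping H3K9me3 peak, by place and strain; points are medians, thick bars run from the lower to the upper quartile, thin lines from the lowest to the highest, and the numbers on top count the peaks. At ends and in interiors the purple medians lie above the grey ones in each strain, and on contigs the thick bars overlap.

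Local background moved with the classes in interiors. Its median there was 30.3 with H3K9me3 and 23.2 without it in mt+, and 65.4 and 38.8 in mt-. At ends it was 30.6 and 31.5 in mt+, and 56.2 and 47.97 in mt-. The part of the background in the width gaps was not tested.

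A wide peak offers more room for an overlap, so the shares were also read within width classes. Among peaks under 0.5 kb, 9 of 84 at ends carried H3K9me3 in mt+ (10.7%, 5.74 to 19.1) and 5 of 640 in interiors (0.781%, 0.334 to 1.82). In mt- the same class gave 8 of 103 (7.77%, 3.99 to 14.6) and 5 of 1783 (0.280%, 0.120 to 0.655). From 2 to 5 kb it was 24 of 32 at ends (75%, 57.9 to 86.7) and 5 of 24 in interiors (20.8%, 9.24 to 40.5) in mt+, and 3 of 3 and 13 of 67 in mt-. The share at ends was above that in interiors in all 4 width classes of mt+ and all 5 of mt- in which both places held peaks, although the intervals overlapped at 1 to 2 kb in mt+ and at 5 kb or more in mt-. Peaks of 5 kb or more at ends carried H3K9me3 in 11 of 15 cases in mt+ and in 22 of 26 in mt-.

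**Figure D2:**
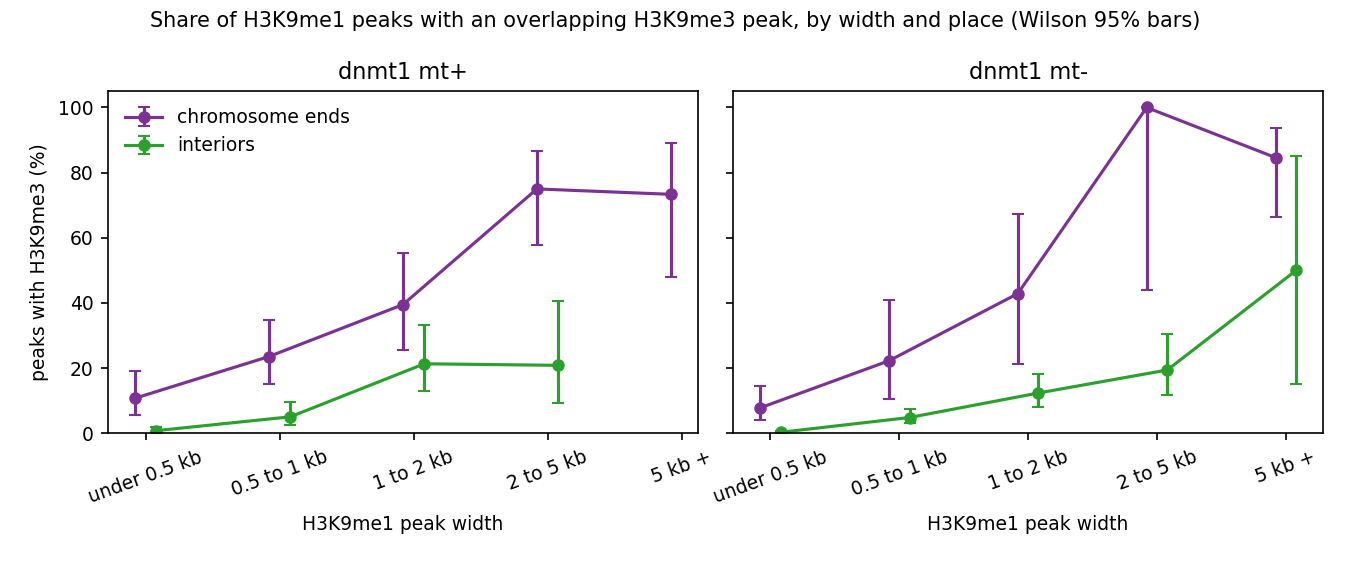
Share of dnmt1 H3K9me1 peaks with an overlapping H3K9me3 peak (per cent) by width class, at chromosome ends (purple) and in interiors (green), with Wilson 95% intervals. In every width class that both places fill, the purple point lies above the green one, with bars that overlap at 1 to 2 kb in mt+ and at 5 kb or more in mt-; mt+ interiors held no peak of 5 kb or more.

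H3K9me3 was nested inside H3K9me1 at the ends, as short peaks within longer ones. Of the H3K9me3 peaks at ends, 151 overlapped H3K9me1 in mt+ and 139 in mt-. Among these, 123 and 125 lay inside H3K9me1 along their whole length. A single H3K9me1 peak held up to 10 in mt+ and up to 12 in mt-. The summit of H3K9me1 itself fell in an H3K9me3 peak in 48 of 75 cases in mt+ and 35 of 45 in mt-. The median share of an H3K9me1 peak covered by H3K9me3 was 48.4% at mt+ ends and 75.6% at mt- ends, and 22.4% and 46.2% in interiors.

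Where H3K9me3 lay in H3K9me1 at chromosome ends, H3K4me3 was nearly always missing. Over the whole lists, 195 of 12211 H3K9me3 peaks of mt+ (1.6%) and 247 of 12467 of mt- (1.98%) overlapped an H3K9me1 peak. H3K9me3 without an overlapping H3K4me3 peak was about as rare, at 206 peaks (1.69%) and 278 (2.23%). In WT the shares of H3K9me3 peaks in H3K9me1 were 2.27% in mt+ and 2.37% in mt-, and those without H3K4me3 0.441% and 0.265%. At ends, 0 of 151 H3K9me3 peaks in H3K9me1 overlapped H3K4me3 in mt+ and 1 of 139 in mt-. Of those at ends outside H3K9me1, 101 of 104 in mt+ and 93 of 100 in mt- overlapped it. The 2 kinds of H3K9me3 thus shared the outer 50 kb and rarely shared a place in it. The lack of H3K4me3 was not particular to H3K9me1 with H3K9me3. H3K9me1 peaks at ends without H3K9me3 overlapped H3K4me3 in 0 of 162 cases in mt+ and 1 of 128 in mt-.

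Interiors held a mixture of the 2 kinds of H3K9me3. There 14 of 31 H3K9me3 peaks in H3K9me1 overlapped H3K4me3 in mt+, and 15 of 69 in mt-. On contigs it was 0 of 13 and 0 of 39. In WT, H3K9me3 in interior H3K9me1 was almost always at H3K4me3, with 218 of 223 peaks in mt+ and 260 of 264 in mt-. At WT ends, as at dnmt1 ends, H3K4me3 was mostly missing, with 2 of 38 H3K9me3 peaks in H3K9me1 at H3K4me3 in mt+ and 4 of 15 in mt-. The ends of both genotypes thus differed from WT interiors in this, and dnmt1 ends held more such peaks than WT ends. In WT mt+, however, the 38 peaks had a high median local background of 133, against 26.5 for H3K9me3 outside H3K9me1 at ends. The right end of chromosome 5 alone had 17 H3K9me3 peaks away from H3K4me3 in WT mt+, at a median background of 232. The part of the background in this was not tested.

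The authors' fold over background was low for H3K9me3 in H3K9me1. Its median was 1.89 in mt+ and 1.95 in mt-, against 3.29 and 3.35 for the H3K9me3 peaks outside H3K9me1 in the same lists. Of those outside, 99.8% in mt+ and 99.6% in mt- overlapped H3K4me3. Inside H3K9me1, the 14 and 16 peaks at H3K4me3 had median folds of 2.76 and 2.92. The 181 and 231 away from it had 1.87 and 1.92. The highest fold among H3K9me3 peaks in H3K9me1 without H3K4me3 was 2.53 in mt+ and 3.04 in mt-. H3K9me3 peaks in H3K9me1 had a median width of 532 bp in mt+ and 569 bp in mt-, against 646 and 647.5 bp outside it. H3K9me1 peaks at ends, in turn, had median folds of 2.65 with H3K9me3 and 2.15 without it in mt+, and 2.48 and 1.91 in mt-.

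Along the chromosome, the share of sequence under both marks fell with distance from the end. In the first 5 kb from an end, H3K9me1 covered 51.2% of the sequence of mt+ and 48.9% of that of mt-, and both marks together 14.0% and 17.6%. From 15 to 20 kb the share under both marks was 6.23% and 10.4%, and from 30 to 35 kb 1.87% and 4.09%. From 35 to 40 kb it was 0.165% and 0.288%, and from 40 to 50 kb no base lay under both marks in either strain. Between 50 and 65 kb the only stretch under both marks was at 1 end of mt+, from 55 to 60 kb. H3K4me3 ran the other way, with 2.68 kb in total in the first 5 kb of the ends of mt+ and 21.5 kb between 40 and 45 kb. In WT the first 5 kb had 3.49% under both marks in mt+ and 2.84% in mt-, while H3K9me1 covered 67.1% and 65.0%.

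**Figure D3:**
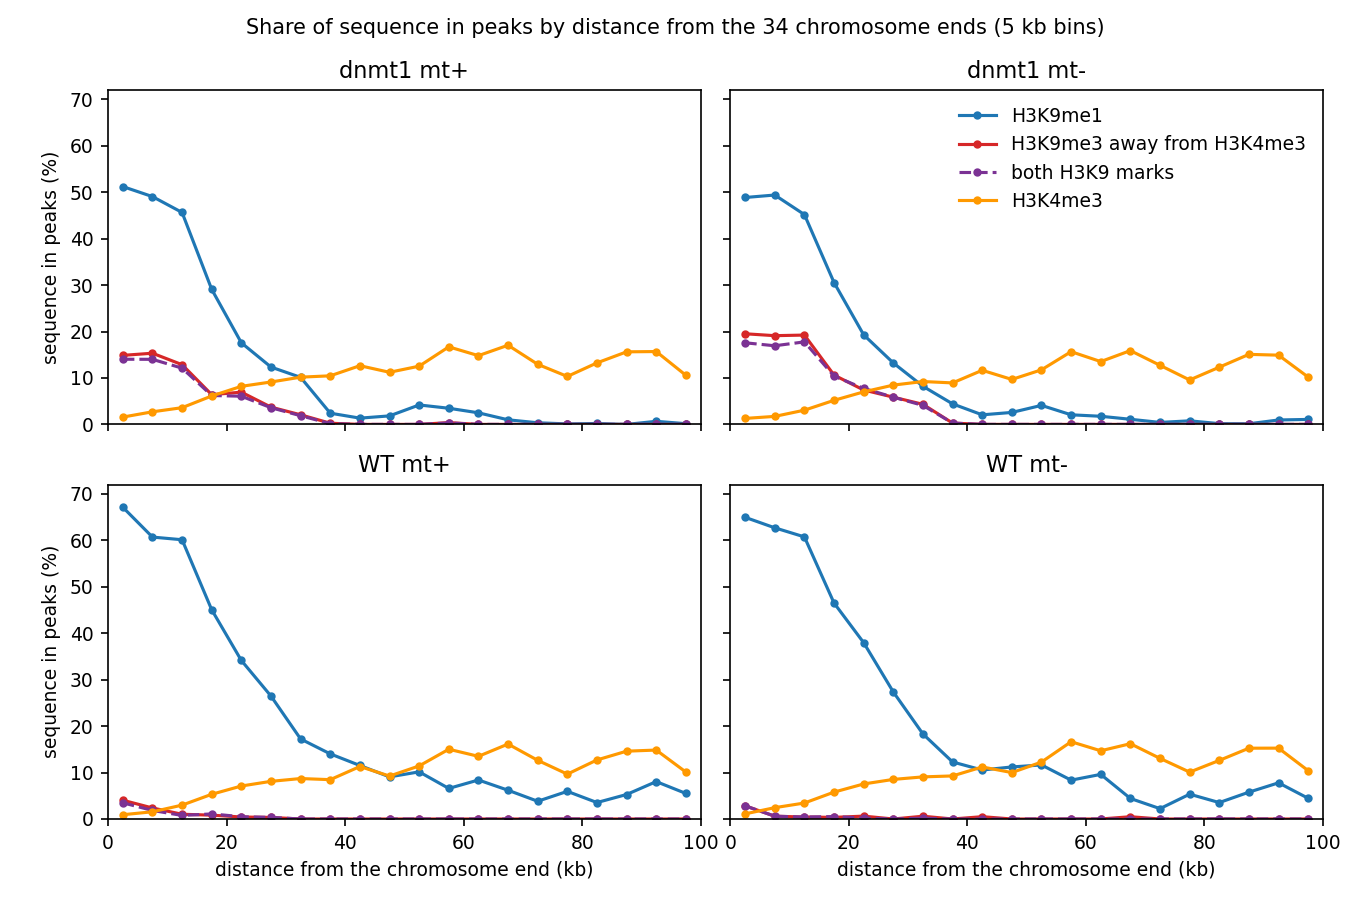
Share of sequence (per cent) in peaks of H3K9me1 (blue), H3K9me3 away from H3K4me3 (red), both H3K9 marks (purple, dashed) and H3K4me3 (orange), in 5 kb bins by distance in kb from the 34 chromosome ends, for dnmt1 (top) and WT (bottom). In dnmt1 the red and purple lines run close together and fall to 0 between 40 and 50 kb, and in WT they stay at or below 4.04% of the sequence.

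The ends that carried both marks were nearly the same in the 2 strains. Of 34 ends, 17 had at least 1 bp under both marks in mt+ and 19 in mt-. All 17 of mt+ were among the 19 of mt-, and 15 ends had none in either strain. They were 9 left and 8 right ends. Right ends were taken to lie at the farthest peak of any list, so their distance to the true end is unknown. The length under both marks at ends that had any ranged from 0.959 to 15.2 kb in mt+ (median 5.44 kb) and from 0.265 to 26.8 kb in mt- (median 4.51 kb). Over the 34 ends this length had a Spearman rank correlation of 0.957 between strains, as a description that includes the 15 ends at 0 in each.

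The 8 ends with the most sequence under both marks held 73.2% of that length at mt+ ends and 81.4% at mt- ends. The left end of chromosome 17 came first, with 15.2 kb under both marks of 30.3 kb of H3K9me1 in mt+, and 26.8 of 32.1 kb in mt-. It had 23 H3K9me3 peaks away from H3K4me3 in mt+ and 17 in mt-. The sequence under both marks lay between 1.94 and 34.6 kb from the end in mt+, and between 1.14 and 34.4 kb in mt-. In WT the same window had 34.4 and 33.7 kb of H3K9me1, but 0 and 0.281 kb under both marks. The H3K9me1 of this end was thus of similar length in WT and dnmt1, and the H3K9me3 list differed.

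The right end of chromosome 4 (4079734 to 4129733) had 12.0 kb under both marks of 23.5 kb of H3K9me1 in mt+, and 20.9 of 24.9 kb in mt-. Its WT windows had 2.14 and 0 kb under both marks. Chromosome 16 at its right end (7992037 to 8042036) had 12.9 of 16.9 kb in mt+ and 13.6 of 17.2 kb in mt-, with 0 kb in each WT list. At both of these ends most of the H3K9me1 length in mt- also lay under H3K9me3. Chromosome 10 had, at its right end (6748592 to 6798591), the largest ratio between strains of the 8, with 5.44 of 9.43 kb in mt+ and 15.6 of 17.6 kb in mt-. Its H3K9me1 was split there into 19 peaks in mt+, of which 13 carried H3K9me3, and into 11 in mt-, all of which did.

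In mt-, the other 4 of these ends had less sequence under both marks than the 4 ends described above. On chromosome 7 the right end (6441458 to 6491457) had 8.17 of 12.2 kb in mt+ and 8.82 of 14.9 kb in mt-. For the left end of chromosome 5 the values were 7.08 of 15.97 kb and 9.91 of 16.9 kb. For that of chromosome 13 they were 7.26 of 16.5 kb and 7.62 of 18.3 kb. At the left end of chromosome 4, 4.23 of 13.3 kb lay under both marks in mt+ and 8.24 of 14.6 kb in mt-, so H3K9me3 covered more there in mt- on nearly the same H3K9me1 length. All 4 had between 0 and 1.05 kb under both marks in either WT list.

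**Figure D4:**
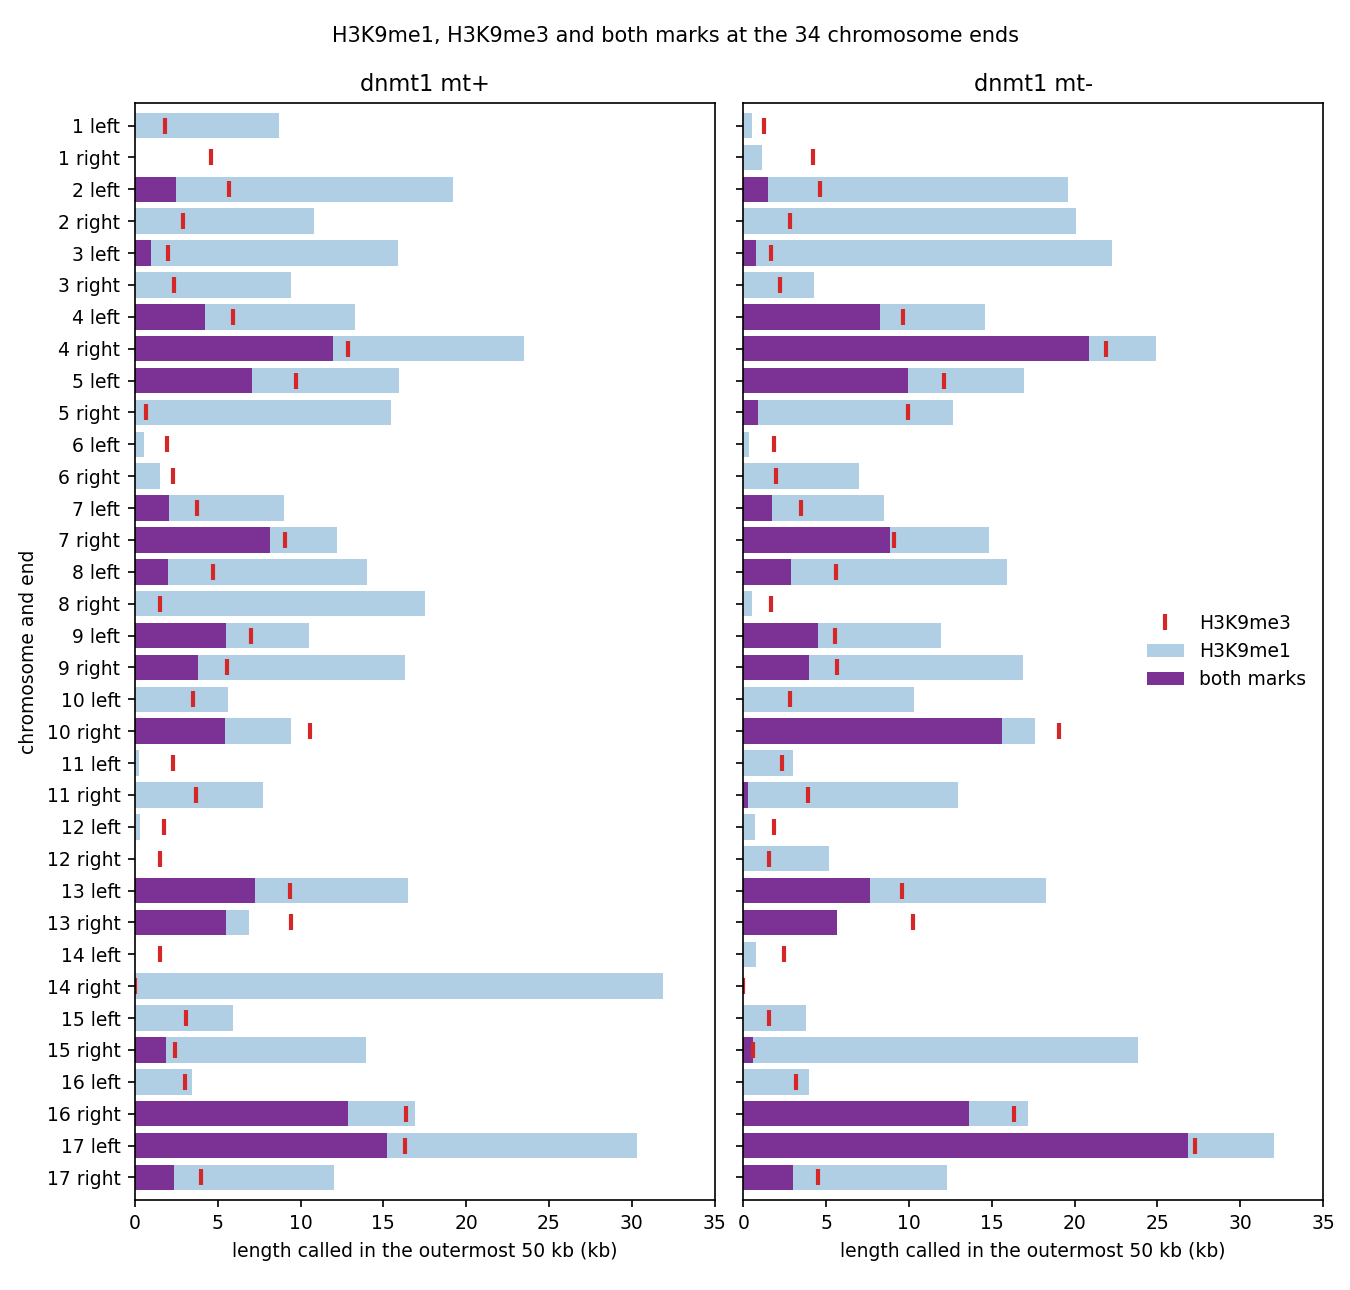
Length in kb called within the outermost 50 kb of each of the 34 chromosome ends for H3K9me1 (light blue bars), both marks (purple bars) and H3K9me3 (red ticks, which include H3K9me3 at H3K4me3) in dnmt1 mt+ (left panel) and dnmt1 mt- (right panel). Purple bars stand at the same 17 ends in both panels, with 2 further small ones in mt-, the right ends of chromosomes 5 and 11.

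The other ends with both marks in both strains were the right ends of chromosomes 9, 13, 15 and 17 and the left ends of chromosomes 2, 3, 7, 8 and 9. Of these, the right end of chromosome 13, singled out after its values were seen, stood apart because WT had nearly as much. It had 5.47 kb under both marks in dnmt1 mt+ and 5.65 kb in dnmt1 mt-, and 4.27 and 5.30 kb in WT. The local background of its H3K9me1 peaks was 137 in dnmt1 mt+ and 233 in dnmt1 mt-, far above the list medians.

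Having H3K9me1 at an end did not by itself come with H3K9me3. All 17 shared ends had at least 5 kb of H3K9me1 in each strain. Of the 26 ends with as much in mt+, however, 9 carried no H3K9me3 in it, and of the 23 in mt- 4 did not. The 9 of mt+ included calls on a high local background. Its median was 258, 246, 143 and 91.3 at the right ends of chromosomes 14, 8, 5 and 3, and 249 at the left end of chromosome 1. It was 21.5 and 26.0 at the right ends of chromosomes 2 and 11, and 43.4 and 58.9 at the left ends of chromosomes 10 and 15. No end with less than 5 kb of H3K9me1 carried both marks, out of 8 in mt+ and 11 in mt-. These include ends with 0 kb of H3K9me1, which could not carry both. They were the right ends of chromosomes 1 and 12 and the left end of chromosome 14 in mt+. In mt- it was the right end of chromosome 14. Chromosome 2 at its right end, chosen after its values were seen, had 10.8 and 20.1 kb of H3K9me1 and 0 kb under both marks. Only mt- had both marks at the right ends of chromosomes 5 and 11, over 0.887 and 0.265 kb. At the first of them WT mt+ had 3.95 kb under both marks and WT mt- 0 kb.

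The 15 ends without both marks also differed in H3K9me1. In WT their H3K9me1 length had a median of 7.67 kb in mt+ and 7.33 kb in mt-, against 20.8 and 20.3 kb at the 17 shared ends. In dnmt1 the medians were 3.47 and 2.99 kb, against 14.0 and 16.9 kb. The dnmt1 strains disagreed by a median of 4.64 kb of H3K9me1 at these 15 ends and of 1.42 kb at the 17. The dnmt1 H3K9me1 lists took part in sorting the ends, so these dnmt1 values only describe the groups. In set3 the H3K9me1 length had medians of 1.25 and 1.39 kb at the 15 ends and of 9.35 and 13.7 kb at the 17. H3K4me3 was alike in both groups of ends, with medians of 3.71 and 3.70 kb in mt+ and 3.08 and 3.54 kb in mt-.

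The largest gaps between strains, picked out after their values were seen, were at 2 ends where the call rested on a high background. Chromosome 14 had 31.9 kb of H3K9me1 at its right end in dnmt1 mt+, and 0 kb in dnmt1 mt- and in each WT list. Chromosome 8 had 17.5 kb at its right end in dnmt1 mt+, 0.496 kb in dnmt1 mt- and 0 kb in WT. The median local background of the mt+ peaks was 258 and 246 at these ends. Neither end had any H3K9me3 away from H3K4me3. Whether the background accounts for these peaks was not tested.

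In interiors both marks met at few places. Stretches under both marks, joined over gaps of up to 5 kb, formed 41 regions on 14 chromosomes. Of these, 14 were found in both strains, 9 in mt+ alone and 18 in mt- alone. They summed to 9.23 kb under both marks in mt+ and 34.99 kb in mt-. The 6 regions with the most held 52.2% of that length in mt+ and 83.0% in mt-.

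A region on chromosome 13 from 4369051 to 4416024 had the most under both marks, and held the greater part of that length in mt- but not in mt+. H3K9me1 covered 35.4 kb of its 46.97 kb in mt+ and 34.01 kb in mt-, and both marks 1.98 and 23.6 kb. There were 6 H3K9me3 peaks in mt+ and 34 in mt-, of which 0 overlapped H3K4me3, and WT had no H3K9me3 peak in either strain. Its local background was high, with medians of 79.3 and 146 for the H3K9me1 peaks and 103 and 85.4 for the H3K9me3 peaks. The strains thus differed there in H3K9me3 and had nearly the same length of H3K9me1.

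The second region resembled it on a smaller scale and at an ordinary background. On chromosome 2 from 2594655 to 2604708, both marks covered 0.792 kb in mt+ and 2.05 kb in mt-, of 5.33 and 6.12 kb of H3K9me1, again with 0 H3K9me3 peaks at H3K4me3. The local background of its H3K9me1 peaks was 29.0 in mt+ and 49.7 in mt-. The next 3 regions were of the other kind, where 1 H3K9me3 peak in each strain overlapped H3K4me3. On chromosome 1 from 1194614 to 1196503, both marks covered 1.30 kb in mt+ and 1.33 kb in mt-. On chromosome 3 they covered 0.377 and 0.637 kb from 7021362 to 7022260, and 0.368 and 0.59 kb from 7009322 to 7009911. The first of these had a further H3K9me3 peak in mt-, away from H3K4me3.

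None of these 5 regions had an H3K9me3 peak in WT, where H3K9me1 covered each of the 4 smaller ones along its whole length in both strains. The sixth, on chromosome 6 from 1782696 to 1786956, had 0 kb under both marks in mt+ and 0.853 kb in mt-. It had 2 H3K9me3 peaks in WT mt+ and 0 in WT mt-.

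The series is about recombination at the sex-determining region, where no dnmt1 peak carried both marks. On mating_type_plus there were 16 H3K9me1 peaks in mt+ and 1 in mt-, none with H3K9me3, where 0 of 16 allows a share of up to 18.75%. In the first 1 Mb of chromosome 6, which holds the mating-type region, 0 of 9 H3K9me1 peaks in mt+ and 0 of 36 in mt- carried H3K9me3, which allows up to 33.3% and 8.33%. The left end of chromosome 6 had 0.545 and 0.322 kb of H3K9me1 and nothing under both marks. In WT, 1 of 14 H3K9me1 peaks on mating_type_plus carried H3K9me3 in mt+ and 2 of 7 in mt-. All of these carried only H3K9me3 that overlapped H3K4me3.

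On contigs both marks met in 2 of 40 in both strains and in 5 more in mt- alone. On contig 51, both marks covered 3.09 kb of 13.6 kb of H3K9me1 in mt+ and 4.62 of 14.4 kb in mt-. On contig 32 they covered 2.403 of 8.69 kb and 1.97 of 14.7 kb. Backgrounds there were ordinary, at 27.1 and 47.8 for the H3K9me1 peaks of contig 51 and 28.2 and 60.5 for those of contig 32.

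Contigs 37 and 27 had both marks in mt- alone, over 7.05 and 2.12 kb. In mt+ they had 22.001 and 39.7 kb of H3K9me1 and 0 kb under both marks. The local background of their H3K9me1 peaks was 167 and 120 in mt+ and 253 and 198 in mt-, and of all 26 contig peaks with H3K9me3 in mt- the median was 248, against 27.5 for the 11 in mt+. The excess of contigs in mt- thus moved with a high background, whose part in it was not tested.

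H3K9me1 peaks without H3K9me3 were in the main narrow and interior. Of the 1131 in mt+, 75.4% lay in interiors, and of the 2585 in mt- 91.7%. The widest in mt+ was that at the right end of chromosome 8 described above, from 4509388 to 4526884, 17.5 kb long. The next were on chromosome 14 from 4197381 to 4210264, with 12.9 kb, and on contig 37 from 16188 to 27815, with 11.6 kb. All 3 thus lay in the high-background stretches named above.

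In mt- the widest was on chromosome 2 from 8631923 to 8649938, with 18.02 kb, a fold of 2.99 and the nearest H3K9me3 peak 0.168 kb away. The next were at the left end of chromosome 10 from 561 to 10840, with 10.3 kb, and at the right end of chromosome 11 from 4466236 to 4473179, with 6.94 kb. At ends such peaks did not lie nearer to H3K9me3 of any kind than in interiors. Most of that H3K9me3 was at H3K4me3, with 11790 of the 11811 interior peaks outside H3K9me1 in mt+ and 11994 of 12017 in mt-. The distance to H3K9me3 away from H3K4me3 was not measured. An H3K9me3 peak lay within 1 kb of 29 of the 162 such peaks at ends in mt+ (17.9%, 12.8 to 24.5) and of 196 of 853 in interiors (23.0%, 20.3 to 25.9). In mt- it was 12 of 128 (9.38%, 5.44 to 15.7) and 589 of 2371 (24.8%, 23.1 to 26.6).

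At the 17 shared ends, 75 of 133 H3K9me1 peaks carried H3K9me3 in mt+ and 41 of 76 in mt-. The peaks next to the limit of the end window carried none. In mt+ they lay 49.9 kb from the right end of chromosome 5 (0.248 kb wide) and 51.2 kb from the left end of chromosome 15 (1.04 kb wide). In mt- they lay 49.7 and 50.7 kb from the left end of chromosome 7 (0.676 and 0.621 kb wide).

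Peaks with H3K9me3 recurred between strains more than those without it. Of the 117 in mt+, 116 overlapped an H3K9me1 peak of mt-, and 104 (88.9%) one that carried H3K9me3 there. Of the 131 in mt-, 122 overlapped an H3K9me1 peak of mt+ and 59 (45.04%) one with H3K9me3. Without H3K9me3, 710 of 1131 peaks of mt+ (62.8%) and 537 of 2585 of mt- (20.8%) had a counterpart. At ends, 73 of 75 peaks of mt+ and 34 of 45 of mt- met one with H3K9me3 in the other strain. Wide peaks meet a counterpart more easily, and the 2 classes differ in width.

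The lists of the other marks and genotypes, which were not used to sort the peaks, also differed between the classes. H3K4me3 was not independent of the sorting, since most dnmt1 H3K9me3 peaks overlapped it. Its shares below therefore only describe the classes. Peaks with H3K9me3 are wider at ends and in interiors, and a wide peak meets another list more easily. The part of width in the WT and set3 shares that follow was not tested. Of all dnmt1 H3K9me1 peaks, 69.6% in mt+ and 55.1% in mt- lay on H3K9me1 of the WT list. With H3K9me3 it was 117 of 117 and 124 of 131 (94.7%, 89.4 to 97.4), and without it 752 of 1131 (66.5%, 63.7 to 69.2) and 1373 of 2585 (53.1%, 51.2 to 55.0). At ends the gap was smaller, with 75 of 75 and 42 of 45 against 141 of 162 (87.0%, 81.0 to 91.4) and 114 of 128 (89.1%, 82.5 to 93.4). The H3K9me1 of peaks with H3K9me3 was thus nearly always called in WT too.

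H3K9me3 was rarely called at the same peaks in WT. Over all dnmt1 H3K9me1 peaks, a WT H3K9me3 peak overlapped 2% in mt+ and 0.626% in mt-. With H3K9me3 in dnmt1 it was 13 of 117 (11.1%, 6.61 to 18.1) and 13 of 131 (9.92%, 5.89 to 16.2). Without it, a WT H3K9me3 peak lay on 12 of 1131 (1.06%, 0.608 to 1.85) and 4 of 2585 (0.155%, 0.0602 to 0.397). H3K9me1 of set3 cells overlapped 46.4% of all peaks in mt+ and 48.9% in mt-. At ends it overlapped 66 of 75 peaks with H3K9me3 (88%, 78.7 to 93.6) and 86 of 162 without (53.1%, 45.4 to 60.6) in mt+, and 40 of 45 (88.9%, 76.5 to 95.2) and 52 of 128 (40.6%, 32.5 to 49.3) in mt-. In interiors of mt+ the 2 classes were alike, at 13 of 31 (41.9%, 26.4 to 59.2) and 354 of 853 (41.5%, 38.2 to 44.8), while in mt- they were 46 of 60 (76.7%, 64.6 to 85.6) and 1129 of 2371 (47.6%, 45.6 to 49.6).

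H3K4me3 differed by place among peaks with H3K9me3, and H3K4me1 did so among peaks without it in mt+. H3K4me3 overlapped 0.962% of all H3K9me1 peaks in mt+ and 1.07% in mt-, but 5 of 31 interior peaks with H3K9me3 in mt+ (16.1%, interval 7.09 to 32.6) and 11 of 60 in mt- (18.3%, interval 10.6 to 29.9). At ends it overlapped 0 of 75 in mt+, which allows a share of up to 4%, and 1 of 45 in mt-. Without H3K9me3 it overlapped 0 of 162 at mt+ ends, which allows up to 1.85%, and 1 of 128 at mt- ends. In interiors without H3K9me3 it was 7 of 853 in mt+ and 16 of 2371 in mt-. H3K4me1 overlapped 21.6% of all H3K9me1 peaks in mt+ and 4.42% in mt-. With H3K9me3 it was 2 of 117 (1.71%, 0.470 to 6.02) and 0 of 131, which allows up to 2.29%. Without H3K9me3 it was 268 of 1131 (23.7%, 21.3 to 26.3) and 120 of 2585 (4.64%, 3.90 to 5.52). Levels also differed by place in mt+. At mt+ ends H3K4me1 overlapped 0 of 75 peaks with H3K9me3 and 6 of 162 without (3.70%, 1.71 to 7.84). In mt+ interiors it overlapped 2 of 31 (6.45%, 1.79 to 20.7) and 253 of 853 (29.7%, 26.7 to 32.8). In mt- the places were alike. Without H3K9me3 it was 5 of 128 at ends (3.91%, 1.68 to 8.82) and 115 of 2371 in interiors (4.85%, 4.06 to 5.79). With H3K9me3 it was 0 of 45 and 0 of 60. The H3K4me1 lists of the strains differ in length, with 12718 peaks in dnmt1 mt+ and 1104 in dnmt1 mt-, so their shares are compared within a strain.

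**Figure D5:**
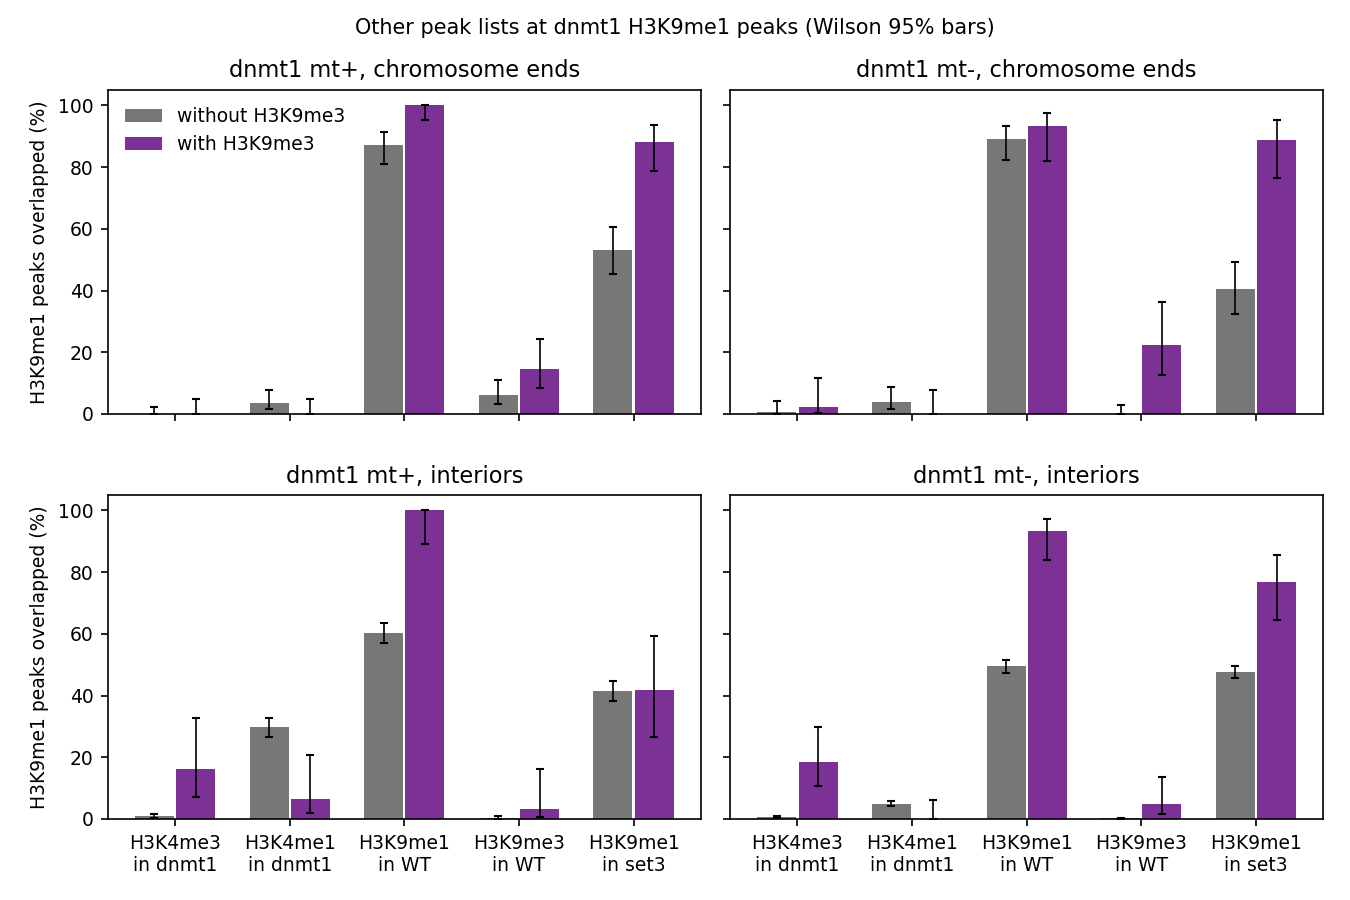
Share of dnmt1 H3K9me1 peaks (per cent, with Wilson 95% intervals) overlapped by a peak of 5 other lists of the same strain, for peaks without (grey) and with (purple) H3K9me3, at chromosome ends (top) and in interiors (bottom). At ends the purple bars of H3K9me1 in set3 stand at 88% and 88.9%, above the grey ones at 53.1% and 40.6%. Peaks with H3K9me3 are wider, and the shares are not adjusted for width.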

How the data were processed

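ChIP-seq peak lists of 18 libraries were analysed, and the 10 input samples were not used here. Per the submitters' processing notes, the tools were MACS2 2.2.7.1, deepTools 3.5.1, Picard, Trim Galore 0.6.7 and Bowtie2 2.4.2. Neither their settings nor a genome build could be taken from the labels. Each list comes from 1 library. For each peak the authors deposited a display score, a fold (linear ratio) over local background, −log10 values of p and q, and the summit. Folds are the authors' and serve only to describe peaks. The lowest −log10 q was just above 2 in each deposited list.

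Overlap needed 1 bp. Coordinates are counted from 1. Each sequence was taken to end at its farthest peak in any list. Local background was solved from the deposited fold and p-value with the MACS2 formulas, and is approximate. The overlap and background calculations were tested on simulated data. Shares carry Wilson 95% intervals, and medians intervals from binomial order statistics. Where the text gives the share that a count of 0 allows, the limit is 3 divided by the number of peaks, not a Wilson limit. Python 3.11.15, pandas 2.3.3, numpy 2.4.6, scipy 1.17.1 and matplotlib 3.10.9 were used. No test was run, with 1 library per mark, genotype and strain.

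The named regions were the 8 ends, 6 interior regions and 4 contigs with the most length under both marks, and the 3 widest H3K9me1 peaks per strain without H3K9me3. Members and lists were chosen with earlier results of these data known. Alternatives were a 50% overlap, a −log10 q of at least 5, H3K9me1 peaks joined over 1 kb, H3K9me3 away from H3K4me3, end windows of 20 and 100 kb and, added after seeing the data, ends without the right end of chromosome 5.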

Additional observations from a re-analysis of the deposited data

Results flagged for a closer look

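The share of all H3K9me1 peaks that carried H3K9me3 was above that of WT in mt+ and below it in mt-, a disagreement between strains that was not tested. It was 9.38% in dnmt1 and 7.15% in WT of mt+, a difference of 2.22 percentage points, and 4.82% and 7.32% in mt-, a difference of -2.49 percentage points. The disagreement was not there for H3K9me3 away from H3K4me3. Such H3K9me3 lay on 103 of 1248 peaks in dnmt1 mt+ and 31 of 3831 in WT mt+. In mt- it lay on 114 of 2716 in dnmt1 and 10 of 4113 in WT, so dnmt1 was above WT in both strains. Within places the strains moved the same way. At chromosome ends the difference from WT was 19.3 points in mt+ and 20.4 in mt-, in interiors -3.41 and -4.97, and on contigs 4.30 and 17.3. The negative values in interiors came with WT H3K9me3 at H3K4me3. Away from H3K4me3, interior H3K9me3 lay on 17 of 884 H3K9me1 peaks in dnmt1 mt+ and 5 of 3384 in WT mt+. In mt- it lay on 44 of 2431 in dnmt1 and 3 of 3697 in WT, so dnmt1 was then above WT in both strains. Interior peaks numbered 884 of 1248 in dnmt1 mt+ and 2431 of 2716 in dnmt1 mt-.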

How the results depend on the processing

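The share at chromosome ends was above that in interiors under all 7 planned settings in each strain, and peaks with H3K9me3 were wider than those without it under all 5 settings compared for width. Of the values recomputed under these settings, 40 moved by less than their interval or, for counts of ends, by less than 1.5 times. Another 28 moved by more, for causes that were not tested.

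When H3K9me3 had to cover 50% of the H3K9me1 peak, the share with it was 4.01% in mt+ and 2.80% in mt- over the whole lists, 15.2% and 17.9% at ends, 1.02% and 1.19% in interiors, and 4.50% and 14.4% on contigs. The median width with H3K9me3 was then 670 and 795 bp, and both marks were left at 11 and 10 ends. With a −log10 q of at least 5 in both lists, the share was 25.6% at mt+ ends, 6.74% over the mt- list, 4.28% in mt- interiors, and 1% and 8.11% on contigs. Median widths were then 1838 bp with H3K9me3 in mt+, and 507 bp in mt+ and 427 bp in mt- without it.

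With H3K9me1 peaks joined over gaps of up to 1 kb, the share was 6.48% over the mt+ list and 44.7% on mt- contigs. Median widths were 4781.5 and 5294 bp with H3K9me3, and 361 bp without it in mt+. Counting H3K9me3 away from H3K4me3 alone gave 1.92% and 1.81% in interiors, and a 20 kb end window gave 35.6% at mt- ends. Apart from the 50% overlap, both marks stood at 16 to 18 ends in mt+ and 16 to 19 in mt-. Without the right end of chromosome 5, added after seeing the data, the share at WT mt+ ends was 6.22%, and at dnmt1 ends 34.4% in mt+ and 28% in mt-. No paired analysis was possible because the values come from no test; differences between dnmt1 and WT are given within each strain. The depth of the libraries is unknown.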
